A study of Rattus norvegicus with 12 samples.

Results

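Hypoxia-ischemia (HI) in newborn rats starves the brain of blood and oxygen, and the colons of such rats were compared here with those of sham-operated rats. The comparison covers 13753 genes of the 14803 in the colon table, chosen because they reached 1 FPKM (sequenced fragments per kilobase, relative to all fragments of the library that were mapped) in at least 3 of the 6 colon libraries. Whole colon RNA of rats was sequenced from 3 HI and 3 sham samples, within a series of 12 libraries that also holds hippocampus. The labels give the tissue and the treatment and no other trait of the animals, and nothing in them states that the samples came from separate animals, so p-values measure the spread between these samples. The series asks whether lipopolysaccharide of gut bacteria acts through TLR4, MyD88 and NF-kB after the injury.

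The HI libraries are called HI 1, HI 2 and HI 3. A sham column is numbered 1 and is called sham 1, while 2 further sham columns have the same header and go by sham 3a and sham 3b here. All values below are given in that order. Intestinal and colonic genes were abundant in all 6 libraries, including the intestinal transcription factor Cdx2 at 131 to 156 FPKM and the peptide guanylin gene Guca2a at 496 to 711 FPKM. Of 15 genes of squamous skin, 3 were tested, and their summed level was at most 29.0 FPKM in any library. Of 19 genes of liver, pancreas and stomach, 3 were tested, at a summed level of at most 28.1 FPKM. The Y-linked genes Eif2s3y and Kdm5d were at 0.202 and 0 FPKM in sham 1 and at 10.6 FPKM or more in the other 5 libraries.

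The colonic lining renews itself from stem cells at the base of the crypts. Their daughters divide several times, leave the cell cycle, and mature into absorptive colonocytes, mucus-secreting goblet cells and hormone-secreting cells as they move to the surface. Below this epithelium lie fibroblasts, vessels, immune cells, enteric neurons and muscle. Genes for DNA synthesis are read in S phase, and those for chromosome segregation in the stages that follow it, so each set marks a different stretch of the cell cycle.

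The colon also changes along its length, and the libraries differed in that respect. Hox genes encode transcription factors that mark position along the body axis, and group 13 genes mark its tail end. As a score on this axis, the level of 3 group 13 genes, averaged as log2(FPKM + 1), was set against that of 21 genes of groups 2 to 9. This Hox axis score (the first mean minus the second) was -0.75, 1.58 and 2.03 in the HI libraries and -2.21, -2.71 and 0.30 in the sham libraries. The score was thus higher in HI as a group, and sham 3b lay above HI 1. The first principal component of the genes tested held 58.3% of the variance. Its values were -6.48, 30.5 and 22.8 in the HI libraries and -26.2, -27.1 and 6.54 in the sham libraries. HI 2 and HI 3 thus lay at one end and sham 1 and sham 3a at the other, with HI 1 and sham 3b between. Results below come from the fit on the groups alone unless the score is said to be held equal. Position along the colon and treatment cannot be fully told apart in these libraries.

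At an adjusted p under 0.05 (limma on log2(FPKM + 1), Benjamini-Hochberg over all genes tested), 6 genes differed between HI and sham colons, which is 0.0436% of the genes tested. Of these, 1 rose (0.00727%) and 5 fell (0.0364%). The count was 13, 3 and 2 without HI 1, HI 2 and HI 3, and 3, 3 and 38 without sham 1, sham 3a and sham 3b. With the Hox axis score held equal, 1 gene fell (0.00727%), and with sham 3b left out of that limma fit as well 0 did, beside 696 genes at an unadjusted p under 0.05. At equal score in all libraries that unadjusted count was 698 (5.08%), in place of 1533 (11.1%).

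**Figure D1:**
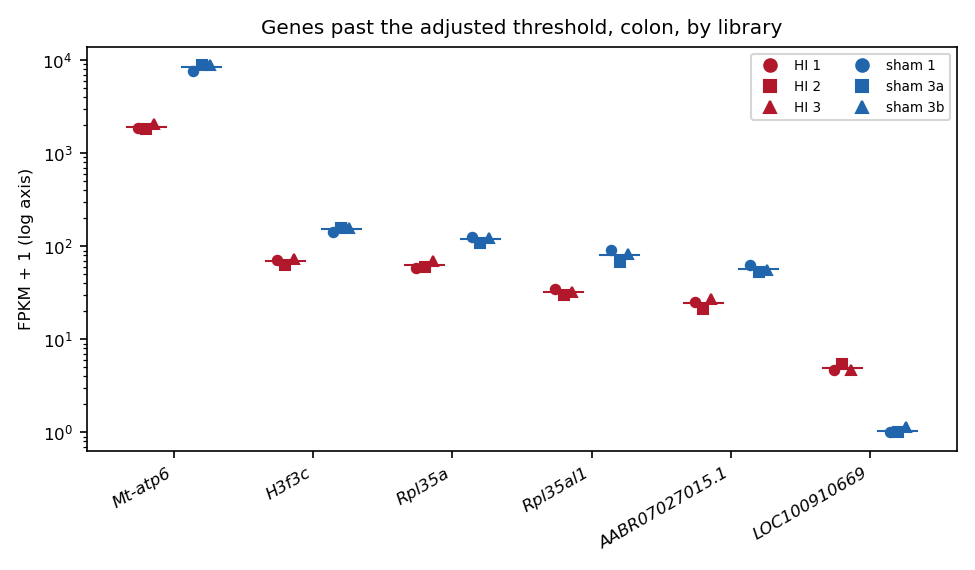
FPKM + 1 on a log axis for the 6 genes past the adjusted threshold, with a point per library and a line at each group's mean (HI left, sham right). HI libraries lie below all sham libraries in 5 genes and above them in LOC100910669.

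Mt-atp6 fell furthest in level. This gene of the mitochondrial genome (M:7919-8599, plus strand, genome build unstated in the sources used) encodes the membrane subunit of ATP synthase through which protons pass. It stood at 1879, 1799.7 and 2043 FPKM in HI colons, against 7567, 8749 and 8781 FPKM in sham colons. The groups were far apart, and within each the libraries lay close together. The log2 difference was -2.13 ± 0.09 (SE, adjusted p = 0.000755, limma), or 0.228 times the sham level. In the fits on the groups alone that left out 1 library, Mt-atp6 stayed past the threshold in 6 of 6 (adjusted p 0.00515 to 0.0171, limma). At equal Hox axis score the difference was -2.19 and passed the threshold with all libraries. It did not pass at equal score with HI 1 or sham 3b left out. In the hippocampus, where 6.4% of genes were higher and 6.81% lower without overlap, Mt-atp6 was higher in HI, with 10724, 10774 and 10133 FPKM in HI hippocampi, against 10036, 8942 and 9473 FPKM in sham hippocampi.

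No other gene of the mitochondrial genome passed the threshold. Mt-atp8, which overlaps Mt-atp6 by 43 bases and encodes another ATP synthase subunit, had 5792, 5266 and 6265 FPKM in HI and 5847, 6732 and 6491 FPKM in sham, and its groups overlapped. Over the 11 other mitochondrial genes tested the median log2 difference was -0.07, with a range of -0.24 to 0.01. The lowest of them was Mt-nd6, which encodes a subunit of respiratory complex I and is read from the opposite strand, with 44.2, 45.8 and 41.0 FPKM in the HI libraries and 48.8, 54.4 and 52.6 FPKM in the sham libraries. Its groups did not overlap, and it missed the adjusted threshold (adjusted p = 0.381, limma). Of the 71 nuclear genes for oxidative phosphorylation, 47 had higher and 24 lower means in HI, with a median of 0.02, and at equal Hox axis score 15 had higher and 56 lower values, with a median of -0.06.

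H3f3c, a copy of the genes for the replacement histone H3.3 that RefSeq lists as a pseudogene, fell to 70.9, 62.5 and 71.3 FPKM in HI against 142, 156 and 157 FPKM in sham colons. The highest HI library was below the lowest sham library, a log2 difference of -1.14 ± 0.08 (SE, adjusted p = 0.00678, limma). The genes H3f3a and H3f3b, which encode H3.3 itself, differed by 0.02 and -0.01 on the log2 scale. H3f3a had 577, 565 and 607 FPKM in HI colons, against 597, 569 and 557 FPKM in sham colons, with the groups overlapping. In the hippocampus H3f3c had 30.4, 57.4 and 32.4 FPKM in HI hippocampi, against 59.3, 56.0 and 58.5 FPKM in sham hippocampi, where HI 2 lay among the sham libraries.

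Rpl35a is the symbol of a large ribosomal subunit gene, and Rpl35al1 that of a like gene. RefSeq's table (GRCr8) places both symbols on other chromosomes than the files do, so the loci measured may not be the genes that RefSeq names so. Rpl35a stood at 57.2, 59.2 and 67.8 FPKM in HI and 125, 106 and 121 FPKM in sham, and Rpl35al1 at 33.7, 28.8 and 31.5 FPKM in the HI libraries and 91.3, 67.3 and 82.0 FPKM in the sham libraries. AABR07027015.1, a gene model with no role given here, followed with 24.1, 20.0 and 26.3 FPKM in HI against 61.6, 51.8 and 54.2 FPKM in sham colons. In each of these genes the groups were apart, and in each sham 1 was the highest and sham 3a the lowest of the sham libraries. The log2 differences were -0.92, -1.32 and -1.22, with adjusted p of 0.0462, 0.0342 and 0.0362 (limma). Rpl35a and AABR07027015.1 stayed past the threshold in 1 of 6 fits without 1 library, which was that without sham 3b, Rpl35al1 in 3 and H3f3c in 4. The sources used here do not give how reads matching several copies of a gene were counted, so the levels of these copies are uncertain.

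LOC100910669, a gene model without an assigned role, was the gene called higher. It was at 3.69, 4.40 and 3.73 FPKM in HI colons and listed at 0, 0 and 0.136 FPKM in sham colons (log2 difference on the log2(FPKM + 1) scale 2.24 ± 0.14, adjusted p = 0.00385, limma). It passed the filter on low values only through the HI libraries, so to be tested at all it had to be higher in them, and its p is given as a description. Of the 6 genes, the 5 that fell span under 1000 bases each of the genome in the files, as do 3.08% of all genes tested. The remaining ribosomal protein genes were close to even: of all 77 on the list, 57 had lower means in HI with a median of -0.03. Rpl8 was next in line after Rpl35a with 60.8, 49.4 and 61.1 FPKM in HI colons, against 83.6, 68.4 and 95.2 FPKM in sham colons. The files place this Rpl8 at 3:3389612-3390443. Whether that locus is the gene that RefSeq names so was not checked, so its level is uncertain as well.

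Genes of mitosis were lower in HI throughout the list. All 49 members tested had lower means in HI colons, against 59.1% of all genes tested. In 48 of the 49 no HI library reached any sham library, where 10.3% of all genes tested were lower without overlap. At an unadjusted p under 0.05 (limma), 49 of 49 were lower, against 6.55% of all genes tested, and 0 of 49 passed the adjusted threshold. The log2 differences had a median of -0.48 and a range of -0.84 to -0.25, beside -0.04 over all genes tested. In bulk tissue, fewer dividing cells and less RNA per cell cannot be told apart.

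The promoters of 4 members with the smallest p are of use here because mitotic genes are known to share a pair of short promoter elements: the cell cycle homology region (CHR, TTTGAA) and CCAAT, which binds the factor NF-Y. The stretches printed run from 250 bases before to 50 after each start in RefSeq's GRCr8 build, with every CHR match and every CCAAT match on either strand in capitals.
Cdc20, chr5:137255750-137256049, minus strand: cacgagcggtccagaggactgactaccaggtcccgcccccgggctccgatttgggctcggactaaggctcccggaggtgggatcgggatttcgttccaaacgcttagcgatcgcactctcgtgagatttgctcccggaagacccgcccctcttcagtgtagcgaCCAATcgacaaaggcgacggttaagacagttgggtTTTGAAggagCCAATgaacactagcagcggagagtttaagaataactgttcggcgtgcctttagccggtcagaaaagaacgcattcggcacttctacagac
Anln, chr8:29197464-29197763, minus strand: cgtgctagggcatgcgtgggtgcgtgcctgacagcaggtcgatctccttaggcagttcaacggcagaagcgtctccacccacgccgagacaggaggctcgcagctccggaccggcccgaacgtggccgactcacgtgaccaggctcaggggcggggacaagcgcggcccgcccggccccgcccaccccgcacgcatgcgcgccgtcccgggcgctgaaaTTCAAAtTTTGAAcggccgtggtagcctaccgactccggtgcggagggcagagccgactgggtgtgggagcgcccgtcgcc
Cdk1, chr20:19265043-19265342, plus strand: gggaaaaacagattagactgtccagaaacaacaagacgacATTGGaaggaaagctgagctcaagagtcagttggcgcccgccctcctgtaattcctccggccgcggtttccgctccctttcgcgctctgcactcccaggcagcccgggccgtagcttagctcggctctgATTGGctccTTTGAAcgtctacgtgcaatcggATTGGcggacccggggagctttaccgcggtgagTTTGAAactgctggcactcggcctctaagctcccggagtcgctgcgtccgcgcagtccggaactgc
Prc1, chr1:143659231-143659530, plus strand: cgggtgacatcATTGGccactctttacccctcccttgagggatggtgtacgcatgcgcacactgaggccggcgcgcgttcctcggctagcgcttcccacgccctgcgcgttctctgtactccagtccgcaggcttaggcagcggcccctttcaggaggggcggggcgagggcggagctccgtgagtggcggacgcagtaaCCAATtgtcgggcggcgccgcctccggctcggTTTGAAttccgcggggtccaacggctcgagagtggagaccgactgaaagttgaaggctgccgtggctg
A CHR match on either strand was present in 28 of the 40 mitosis promoters that RefSeq's table holds (70.0%), against 11.9% of the 11045 windows of tested genes. CCAAT was in 77.5% of them, against 36.7%, and both elements were in 57.5%, against 4.81%. Of the 32 CHR matches in mitosis promoters, 21 lay within 50 bases of the start. These matches describe the letters and not bound sites. Among tested genes outside the list, 445 held both elements, and 49 of these were lower in HI at an unadjusted p under 0.05. With CHR alone 52 of 682 were lower (7.62%), and with CCAAT alone 185 of 3209 (5.77%). With neither element 302 of 5515 were lower (5.48%), and of all genes tested 6.55% were. The share was largest with both elements, while CHR alone and CCAAT alone lay near that of all genes tested. The median log2 difference was -0.06 with both elements and -0.03 with neither. Genes outside the list can still be genes of cell division, such as Troap described below, so these classes are not independent of the list. A link between the elements and the differences was not tested.

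Among the entry regulators, Cdk1, the kinase that drives cells into mitosis, had 33.5, 31.4 and 33.3 FPKM in HI and 50.8, 51.3 and 46.4 FPKM in sham. Ccna2, the gene of cyclin A2, had 19.3, 18.6 and 16.1 FPKM in the HI libraries and 25.4, 26.7 and 24.5 FPKM in the sham libraries. Ccnb1, which encodes the cyclin B1 partner of Cdk1, had 17.7, 23.0 and 18.5 FPKM in HI against 22.5, 24.9 and 28.2 FPKM in sham colons. The groups were apart in Cdk1 and Ccna2, while in Ccnb1, the 1 member with overlap, HI 2 was above sham 1. The log2 difference was -0.58 ± 0.07 for Cdk1 (SE, adjusted p = 0.0788, limma) and -0.34 for Ccnb1.

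The anaphase activator Cdc20 stood at 20.1, 19.3 and 17.9 FPKM in HI colons, against 30.4, 31.7 and 29.4 FPKM in sham colons. The HI libraries lay close together, well under the sham libraries, and the log2 difference was -0.65 ± 0.08 (SE, adjusted p = 0.0734, limma). Kinetochore genes, whose products tie chromosomes to the spindle, gave smaller levels and like differences. Ndc80 had 6.90, 6.10 and 5.95 FPKM in HI and 9.52, 10.7 and 10.1 FPKM in sham, and Bub1, a kinase of the spindle checkpoint, had 8.19, 7.80 and 7.96 FPKM in the HI libraries and 11.02, 11.6 and 10.99 FPKM in the sham libraries.

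The largest difference of the list was in a gene of the final cut between daughter cells. Anln, the gene of the ring protein anillin, had 5.81, 6.06 and 5.37 FPKM in HI against 11.8, 11.3 and 10.0 FPKM in sham colons. The libraries of each group lay close together and the groups far apart, a log2 difference of -0.84 ± 0.10 (SE, adjusted p = 0.0734, limma). Prc1, which bundles the microtubules midway between the poles, had 25.6, 20.6 and 20.2 FPKM in HI colons, against 38.7, 39.9 and 36.9 FPKM in sham colons, and Racgap1, a partner in the same midzone, had 15.0, 15.3 and 14.4 FPKM in HI and 23.2, 21.3 and 21.1 FPKM in sham. Neither passed the adjusted threshold (adjusted p = 0.109 and 0.152, limma). Troap, a spindle-associated gene outside the list, had 8.04, 9.07 and 9.30 FPKM in the HI libraries and 14.2, 13.6 and 13.5 FPKM in the sham libraries. The smallest difference was in the spindle pole kinase gene Aurka at -0.25, and the proliferation marker Mki67 differed by -0.32, with 12.7, 13.9 and 11.6 FPKM in HI against 17.0, 16.2 and 15.0 FPKM in sham colons.

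By library, relative to the sham mean, the mean of the mitosis list was -0.42, -0.47 and -0.57 in the HI libraries and 0.03, 0.02 and -0.06 in the sham libraries. All HI libraries were lower than all sham libraries. In the fits on the groups alone that left out 1 library, 42 to 48 of the 49 members were lower at an unadjusted p under 0.05, with 44 without sham 1, the library at 0.202 FPKM or less of both Y-linked genes. With the Hox axis score held equal in all libraries the median was -0.41, and 34 of 49 were lower at that level, against 2.6% of all genes tested.

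**Figure D2:**
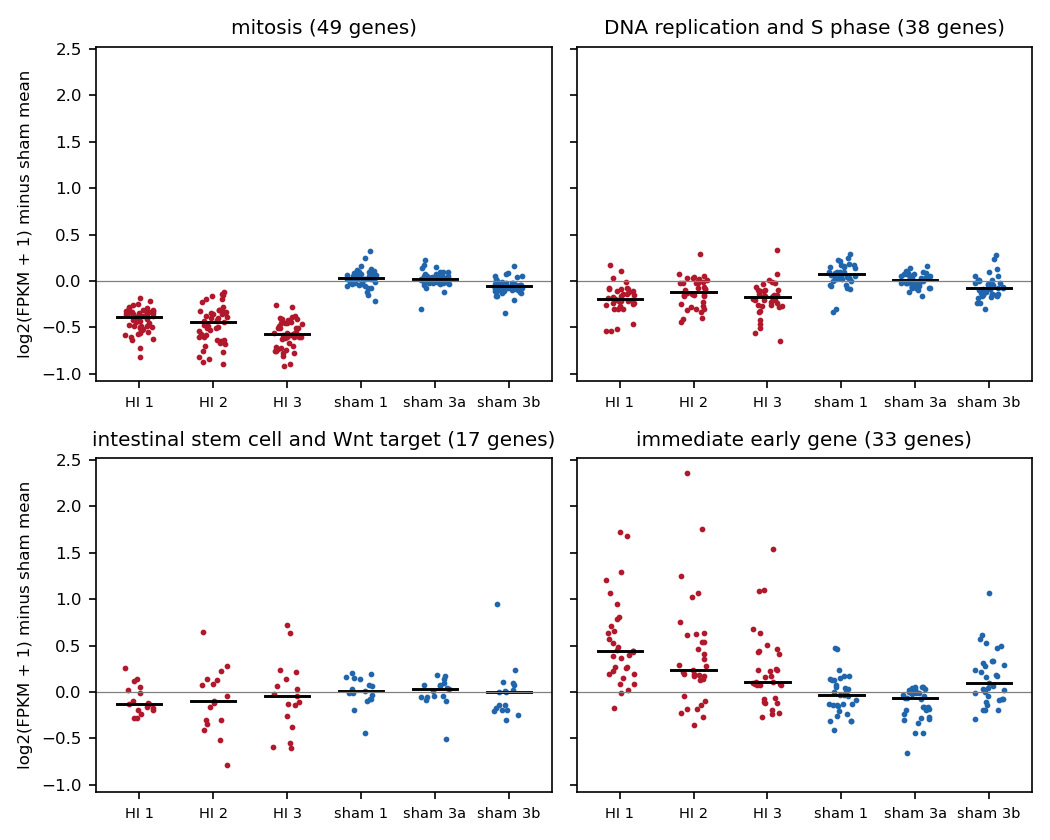
Difference of each list member's log2(FPKM + 1) from its sham mean, a point per gene in each of the 6 libraries (HI left, sham right), with black lines at the medians. The 49 mitosis genes lie below 0 in all 3 HI libraries, S phase genes lie slightly below, stem cell genes on both sides, and immediate early genes mostly above.

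Genes of DNA replication and S phase were lower by less. Of 38 members, 35 had lower means in HI, against 59.1% of all genes tested, and 13 were lower without overlap, against 10.3%. At an unadjusted p under 0.05, 8 were lower, against 6.55%, and the median was -0.15. Ccne2, the gene of a cyclin that starts S phase, had 5.70, 5.79 and 4.90 FPKM in HI colons, against 7.97, 8.79 and 7.93 FPKM in sham colons. Uhrf1, which maintains DNA methylation through replication, had 13.1, 15.5 and 13.3 FPKM in HI and 20.2, 19.8 and 18.2 FPKM in sham. In both genes the groups were apart. Tyms, which makes thymidylate for DNA synthesis, had 22.0, 20.8 and 17.0 FPKM in the HI libraries and 26.8, 27.0 and 22.8 FPKM in the sham libraries and differed by -0.35 ± 0.12 (SE). With 1 library left out, the number of S phase members lower at an unadjusted p under 0.05 was 3 to 11. It was 3 without sham 1, 4 without HI 3 and 5 without HI 1 or sham 3a. Without sham 3b it was 9, and without HI 2 it was 11. CHR matches were in 10.3% of 29 promoters of this list.

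Stem cell and Wnt target genes went both ways. Of 17, 8 had higher and 9 lower means, against 59.1% of all genes tested with lower means, and the median was -0.03. At an unadjusted p under 0.05, 3 were lower, against 6.55% of all genes tested, and 0 to 4 were with 1 library left out. Lgr5, the marker of crypt base stem cells, had 3.08, 1.58 and 1.94 FPKM in HI against 3.35, 4.04 and 3.03 FPKM in sham colons, and HI 1 lay above sham 3b. Axin2, a target of Wnt signalling, had 12.4, 10.4 and 12.95 FPKM in HI colons, against 16.4, 14.4 and 11.7 FPKM in sham colons, also with overlap. Cd44 was lower without overlap, at 30.01, 26.5 and 21.5 FPKM in HI and 31.1, 34.7 and 33.0 FPKM in sham, and so was Msi1, which encodes an RNA-binding protein of progenitors, at 3.90, 3.02 and 2.95 FPKM in the HI libraries and 5.34, 5.04 and 4.02 FPKM in the sham libraries. None passed the adjusted threshold (adjusted p = 0.413, 0.554, 0.408 and 0.396, limma).

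Immediate early genes are switched on within minutes when a cell is stimulated, and many were higher in HI. Of 33, 28 had higher means, against 40.9% of all genes tested, and 13 were higher without overlap, against 5.63%. At an unadjusted p under 0.05, 14 were higher, against 4.6%, and 0 were lower. No member passed the adjusted threshold, and the median was 0.34.

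Among the transcription factors, Atf3 had 8.53, 8.73 and 5.12 FPKM in HI against 1.80, 1.402 and 2.58 FPKM in sham colons. All HI libraries were above all sham libraries, a log2 difference of 1.52 ± 0.22 (SE, adjusted p = 0.152, limma). Fos stood at 29.0, 46.9 and 26.1 FPKM in HI colons, against 6.05, 4.92 and 18.6 FPKM in sham colons, and Klf4, which also marks surface epithelium, at 178, 241 and 217 FPKM in HI and 81.3, 81.4 and 155 FPKM in sham. In both, sham 3b was well above the other sham libraries and below every HI library. Without sham 3b, Fos and Klf4 passed the adjusted threshold, and so did Junb. Junb had 53.5, 47.7 and 45.2 FPKM in the HI libraries and 27.9, 26.4 and 46.1 FPKM in the sham libraries, where HI 3 lay under sham 3b. Nr4a2, an orphan nuclear receptor gene, had 9.87, 10.5 and 11.1 FPKM in HI against 5.07, 6.68 and 8.14 FPKM in sham colons and no overlap. Egr1 had 23.1, 15.1 and 10.1 FPKM in HI colons, against 8.84, 6.72 and 14.02 FPKM in sham colons, with overlap.

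Of the genes that act back on such signals, Dusp1, which encodes a phosphatase of MAP kinases, had 29.5, 31.2 and 21.5 FPKM in HI and 11.8, 13.1 and 21.0 FPKM in sham, where HI 3 was just above sham 3b. Zfp36, whose product marks messages for decay, had 58.9, 50.4 and 42.4 FPKM in the HI libraries and 39.8, 35.7 and 37.5 FPKM in the sham libraries. Errfi1, which encodes an inhibitor of the epidermal growth factor receptor, had 47.5, 48.8 and 46.4 FPKM in HI against 30.6, 30.3 and 37.7 FPKM in sham colons, a log2 difference of 0.53 ± 0.10 (SE, adjusted p = 0.204, limma). Without sham 3b, Errfi1 also passed the adjusted threshold. The Dusp1 promoter is printed because a full cyclic AMP response element (TGACGTCA, in capitals) lies in it.
Dusp1, chr10:17184603-17184902, plus strand: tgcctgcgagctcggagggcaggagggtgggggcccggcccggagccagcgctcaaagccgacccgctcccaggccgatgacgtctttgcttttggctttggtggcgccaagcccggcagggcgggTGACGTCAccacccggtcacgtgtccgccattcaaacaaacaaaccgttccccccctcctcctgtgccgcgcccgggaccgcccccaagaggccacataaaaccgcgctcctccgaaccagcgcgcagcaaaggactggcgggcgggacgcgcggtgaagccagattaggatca
This element was in 4 of 25 promoters of the list (16.0%), against 2.95% of the windows of tested genes. As a list, immediate early genes were highest in HI 1, with means of 0.53, 0.40 and 0.24 in HI and -0.02, -0.13 and 0.15 in sham, relative to the sham mean. At equal Hox axis score the median was 0.31, with 7 members higher at an unadjusted p under 0.05, against 2.48% of all genes tested. In the fit on the groups alone, the count of 14 became 8 without HI 1 and 9 without sham 3a.

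**Figure D3:**
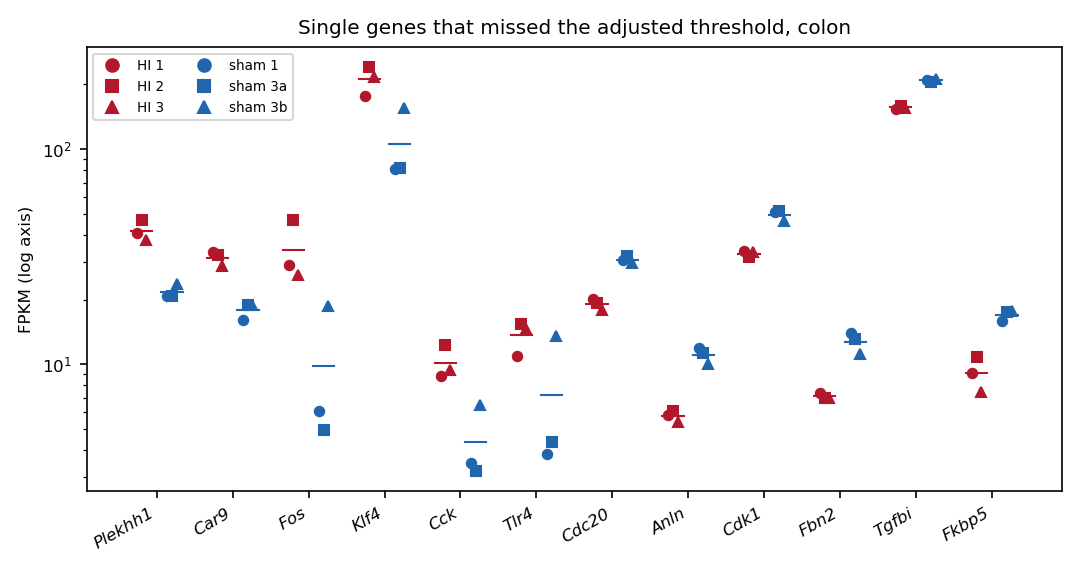
FPKM on a log axis for 12 genes that missed the adjusted threshold, a point per library and a line at each group's mean (HI left, sham right). In Fos, Klf4, Cck and Tlr4 the highest sham point is sham 3b, while in Cdc20, Anln and Cdk1 the sham points lie together above all HI points.

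Other stress programmes were less even. Car9, a cell surface carbonic anhydrase and a classical target of the hypoxia factor HIF, had 33.3, 32.1 and 28.7 FPKM in HI colons, against 16.1, 18.8 and 18.8 FPKM in sham colons. All HI libraries were well above all sham libraries, a log2 difference of 0.77 ± 0.09 (SE, adjusted p = 0.0788, limma). In the hypoxia and glycolysis list, 34 of 44 had higher means, against 40.9% of all genes tested, and 3 were higher without overlap, against 5.63%. At an unadjusted p under 0.05, 2 were higher, Car9 among them, against 4.6% of all genes tested, and 2 lower, against 6.55%. The median of the list was 0.11, or -0.02 at equal Hox axis score. Pdk1, a kinase gene induced by the same factor, had 19.8, 20.2 and 16.8 FPKM in HI and 22.1, 25.4 and 22.0 FPKM in sham, with lower values in HI. Of 35 heat shock and unfolded protein genes, 29 had higher means, against 40.9% of all genes tested, with a median of 0.10. At an unadjusted p under 0.05 (limma), 0 were higher, against 4.6%. Without HI 2 the list had 15 higher and 20 lower means, and at equal Hox axis score 13 higher and 22 lower, with a median of -0.05.

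Glucocorticoid targets split. Fkbp5, a chaperone partner that dampens the glucocorticoid receptor, had 9.13, 10.9 and 7.41 FPKM in the HI libraries and 15.9, 17.4 and 17.6 FPKM in the sham libraries. The groups were apart, a log2 difference of -0.84 ± 0.13 (SE, adjusted p = 0.182, limma). Per1, both a glucocorticoid target and a clock gene, had 15.2, 17.4 and 20.9 FPKM in HI against 13.2, 13.4 and 11.7 FPKM in sham colons, higher in all HI libraries. Of 23 members, 4 were higher and 2 lower at an unadjusted p under 0.05, against 4.6% and 6.55% of all genes tested. At equal Hox axis score 1 was higher and 6 were lower, against 2.48% and 2.6%. Of 19 clock genes, 11 had higher and 8 lower means. At an unadjusted p under 0.05, 5 were higher and 1 lower in the fit on the groups alone, against 4.6% and 6.55% of all genes tested. At equal score 3 were higher and 0 lower at that level, against 2.48% and 2.6%. Npas2, which encodes a partner of the clock activator, had 11.1, 17.8 and 22.0 FPKM in HI colons, against 5.05, 4.53 and 10.8 FPKM in sham colons, and its difference of 1.24 became 0.38 at equal Hox axis score.

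Plekhh1, whose product has membrane-binding domains, had the smallest p among higher genes of moderate level, with 40.8, 47.0 and 37.7 FPKM in HI and 20.9, 20.8 and 23.7 FPKM in sham. The groups were far apart (log2 difference 0.91 ± 0.10, SE, adjusted p = 0.0671, limma). Gcnt2, a glycosyltransferase gene of the I blood group antigen, had 9.24, 9.06 and 8.41 FPKM in the HI libraries and 5.36, 5.95 and 5.28 FPKM in the sham libraries. Ash1l, which encodes a histone methyltransferase, had 12.2, 10.6 and 8.62 FPKM in HI against 5.37, 5.54 and 6.03 FPKM in sham colons. In both the HI libraries were all above the sham libraries. The phospholipase gene Pla2g4c had 14.9, 14.7 and 32.9 FPKM in HI colons, against 1.36, 2.66 and 5.31 FPKM in sham colons, with HI 3 above the rest. Id1, which encodes an inhibitor of basic helix-loop-helix factors, had 175, 196 and 190.3 FPKM in HI and 114, 105 and 144 FPKM in sham, and the tuft cell gene Sh2d6 had 19.9, 20.7 and 22.4 FPKM in the HI libraries and 13.9, 16.2 and 12.7 FPKM in the sham libraries. None of these genes overlapped between groups, and none, Plekhh1 included, passed the adjusted threshold. From Gcnt2 onward the adjusted p was 0.174 to 0.228 (limma). Dgka, Irak2, Chp2 and Sema4g completed the leading higher genes, with log2 differences of 0.40, 0.40, 0.54 and 0.41.

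In the mature epithelium, several large differences shrank at equal Hox axis score. Clca1, a goblet cell protein gene, had 213, 1229 and 1161 FPKM in HI against 101, 49.3 and 217 FPKM in sham colons, and HI 1 lay just under sham 3b. Its difference of 2.70 became 0.78 at equal score. Slc5a8, which encodes a transporter of short-chain fatty acids, had 10.7, 27.2 and 24.6 FPKM in HI colons, against 0.235, 0.0968 and 13.8 FPKM in sham colons, and Scnn1a, a sodium channel subunit gene, had 20.5, 43.3 and 37.4 FPKM in HI and 6.87, 6.26 and 25.9 FPKM in sham. In both, sham 3b was above HI 1, and the differences of 2.91 and 1.53 became 0.63 and 0.25. Tgm3, a transglutaminase gene, spread widely within groups, with 15.0, 99.9 and 158 FPKM in the HI libraries and 0.685, 0.538 and 12.99 FPKM in the sham libraries. Of 18 goblet genes, 15 had higher means, 4 of them at an unadjusted p under 0.05, against 4.6% of all genes tested, and the median was 0.21, or -0.04 at equal score. With 1 library left out that count was 2 to 9.

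Other epithelial genes differed in smaller steps. Atoh1, the factor that commits cells to the secretory fate, had 34.7, 34.1 and 34.2 FPKM in HI against 27.2, 26.4 and 29.7 FPKM in sham colons. All HI libraries were above all sham libraries (log2 difference 0.30 ± 0.07, SE, adjusted p = 0.315, limma). B3gnt6, a glycosyltransferase gene that builds mucin core chains, was lower, with 6.92, 6.21 and 6.11 FPKM in HI colons, against 9.70, 9.83 and 8.94 FPKM in sham colons. Best2, an anion channel gene of goblet cells, had 1.13, 4.77 and 6.11 FPKM in HI and 6.87, 9.17 and 13.02 FPKM in sham, with a difference of -1.23 that became -2.23 at equal score. Slc16a1, which carries lactate and butyrate, had 45.0, 71.4 and 54.0 FPKM in the HI libraries and 33.9, 35.9 and 41.4 FPKM in the sham libraries, without overlap.

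Of 23 genes of the junctions between epithelial cells, 16 had higher and 7 lower means in HI, with a median of 0.07. The groups were apart in 5 that were higher and in 0 that were lower, against 5.63% and 10.3% of all genes tested. At an unadjusted p under 0.05, 5 were higher, against 4.6% of all genes tested, and 1 was at equal Hox axis score. That count was 1 to 5 with 1 library left out, with 1 without sham 3a. Cldn4, a claudin gene of the surface epithelium, had 106, 151 and 78.3 FPKM in HI against 48.7, 47.0 and 74.6 FPKM in sham colons, and HI 3 was the HI library nearest to sham. Tjp3, which encodes a scaffold protein of tight junctions, had 47.8, 46.5 and 49.1 FPKM in HI colons, against 41.7, 37.2 and 43.8 FPKM in sham colons. Cdhr5, which encodes a cadherin-like protein of the brush border, had 258, 254 and 261 FPKM in HI and 216, 209.8 and 236 FPKM in sham, higher in every HI library. Of 17 defence genes, 6 were higher and 1 lower at an unadjusted p under 0.05, against 4.6% and 6.55%, with 2 to 5 higher when 1 library was left out. Among them were Pigr, the antibody transporter, with 99.7, 228 and 179 FPKM in the HI libraries and 24.8, 26.7 and 118 FPKM in the sham libraries, and Duoxa2, needed for hydrogen peroxide release, with 12.8, 26.8 and 20.2 FPKM in HI against 2.96, 1.75 and 12.5 FPKM in sham colons. In Pigr sham 3b lay above HI 1, and in Duoxa2 just under it.

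Hormone and nerve genes were mixed. Of 19 genes of hormone-secreting cells, 4 had higher and 15 lower means in HI, against 59.1% of all genes tested with lower means. Their median was -0.14, or 0.05 at equal Hox axis score. At an unadjusted p under 0.05 (limma), 1 was higher and 2 were lower, against 4.6% and 6.55% of all genes tested. Cck, the gene of the hormone cholecystokinin, had 8.79, 12.2 and 9.38 FPKM in HI colons, against 3.49, 3.19 and 6.44 FPKM in sham colons, without overlap (log2 difference 1.09 ± 0.23, SE, adjusted p = 0.286, limma). Sst, which encodes somatostatin, had 62.1, 25.9 and 32.7 FPKM in HI and 71.7, 88.5 and 49.1 FPKM in sham, with overlap. Of 25 enteric neuron genes, 22 had lower means, against 59.1% of all genes tested, and 2 were lower without overlap, where 10.3% of all genes tested were. The median was -0.19, or -0.02 at equal Hox axis score, and -0.01 without HI 2. HI 2 was the lowest library, at a list mean of -0.49, beside 0.03 and -0.12 in HI 1 and HI 3, and -0.15, 0.13 and 0.02 in sham. Vip, which encodes a transmitter of inhibitory motor neurons, stood apart in every HI library, with 21.5, 15.5 and 21.3 FPKM in the HI libraries and 28.7, 40.2 and 33.6 FPKM in the sham libraries (log2 difference -0.78 ± 0.16, SE, adjusted p = 0.266, limma), and -0.67 at equal score.

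Matrix genes were mostly lower in HI. Of 41 extracellular matrix genes, 35 had lower means, against 59.1% of all genes tested, and 12 were lower without overlap, against 10.3%. At an unadjusted p under 0.05, 12 were lower, against 6.55%, and 2 higher, against 4.6%. The median was -0.17, and -0.30 at equal Hox axis score, with 21 then lower at that level, against 2.6% of all genes tested. The list mean was lowest in HI 1, at -0.28, beside -0.11 and -0.05 in HI 2 and HI 3, and 0.01, -0.05 and 0.05 in sham. With 1 library left out, the number lower at an unadjusted p under 0.05 was 6 to 17. It was 6 without sham 1, 7 without HI 1, 13 without HI 2 and 17 without HI 3.

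Fbn2, the gene of a microfibril protein laid down mainly during development, had 7.32, 6.96 and 6.997 FPKM in HI against 13.9, 13.1 and 11.2 FPKM in sham colons. The HI libraries were nearly level and lay under every sham library (log2 difference -0.76 ± 0.10, SE, adjusted p = 0.118, limma). Eln, which encodes elastin, had 185, 130.4 and 166 FPKM in HI colons, against 281, 272 and 225 FPKM in sham colons, and Nid1, a basement membrane linker gene, had 62.9, 63.3 and 70.7 FPKM in HI and 79.1, 84.7 and 81.7 FPKM in sham. Tgfbi, a matrix gene induced by TGF-beta, had 154, 159 and 156 FPKM in the HI libraries and 209.8, 205 and 212 FPKM in the sham libraries, with narrow spread in both groups (adjusted p = 0.122, limma). The higher members were Timp1, an inhibitor of matrix proteases, with 92.9, 120.2 and 97.2 FPKM in HI against 59.6, 57.0 and 84.3 FPKM in sham colons, and Thbs1, with 11.96, 20.0 and 12.3 FPKM in HI colons, against 8.31, 6.55 and 10.4 FPKM in sham colons.

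Among markers of stromal cells and vessels, none passed the adjusted threshold. Of 23 fibroblast genes, 18 had lower means, against 59.1% of all genes tested, and 5 were lower and 1 higher at an unadjusted p under 0.05, against 6.55% and 4.6%. Foxf1, a factor of gut mesenchyme, had 47.3, 44.9 and 46.6 FPKM in HI and 61.3, 62.0 and 56.7 FPKM in sham, and Gli1, a target of hedgehog signals from the epithelium, had 8.98, 8.72 and 11.4 FPKM in the HI libraries and 15.7, 13.7 and 11.998 FPKM in the sham libraries. Both were lower in every HI library. Of 13 pericyte genes, 6 were lower without overlap, against 10.3% of all genes tested, including Pdgfrb, a growth factor receptor gene, with 6.29, 6.94 and 7.36 FPKM in HI against 10.2, 9.30 and 7.71 FPKM in sham colons. Of 28 endothelial genes, 5 were lower without overlap, against the same 10.3%, including Sox18, with 7.29, 6.29 and 7.91 FPKM in HI colons, against 9.51, 10.5 and 11.1 FPKM in sham colons. Of 23 smooth muscle genes, 3 were higher and 1 lower at an unadjusted p under 0.05, against 4.6% and 6.55%, with a median of 0.07, or -0.07 at equal Hox axis score and -0.01 without HI 3.

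**Figure D4:**
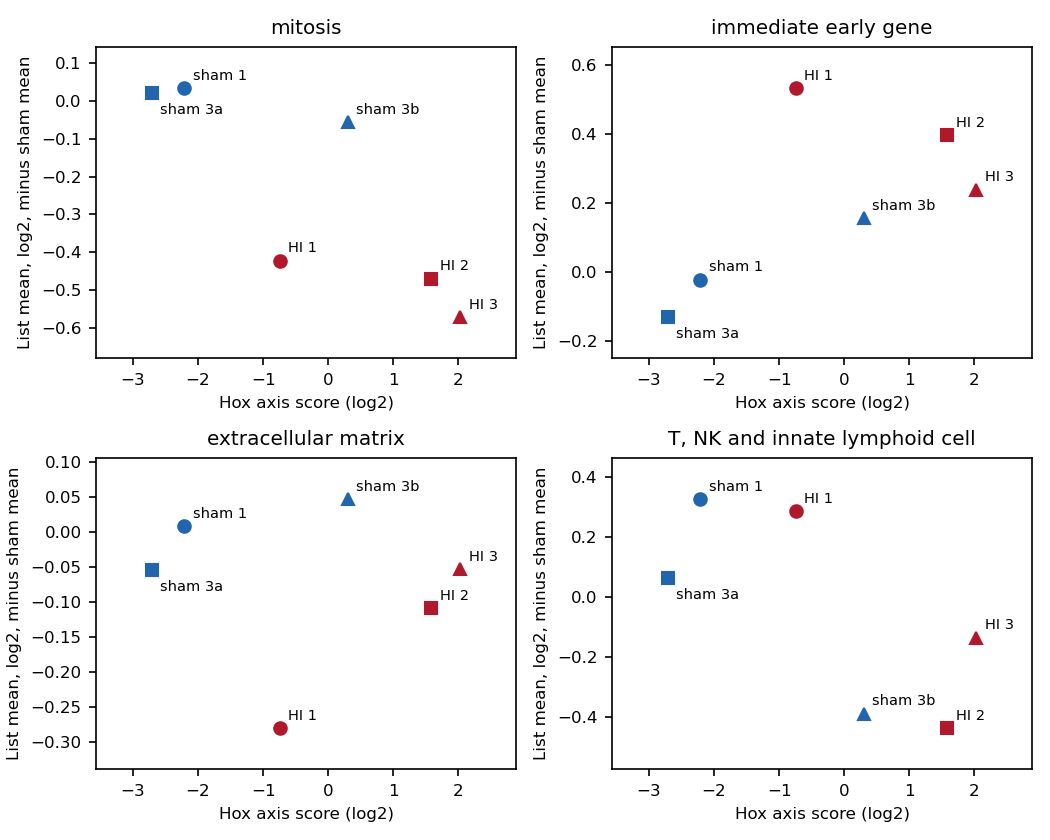
Mean of each list's members in a library, log2 and relative to the sham mean, against the library's Hox axis score, with red points for HI and blue for sham. Mitosis is lower in all 3 HI libraries than in all sham libraries, matrix is lowest in HI 1, and lymphocyte genes are low in HI 2, HI 3 and sham 3b.

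As a list, lymphocyte genes did not separate the groups. The 27 T, NK and innate lymphoid genes had list means of 0.29, -0.44 and -0.14 in the HI libraries and 0.33, 0.06 and -0.39 in the sham libraries, so HI 1 was high and sham 3b low. Their median difference was -0.02, and 0.45 at equal Hox axis score, where 8 were higher, against 2.48% of all genes tested, and 0 lower at an unadjusted p under 0.05. B and plasma cell genes gave 0.09, and 0.71 at equal score. Ccl5, a T cell chemokine gene, had 14.6, 11.9 and 12.4 FPKM in HI and 30.6, 20.4 and 15.1 FPKM in sham, without overlap. Of 25 macrophage and dendritic cell genes, 0 were apart between groups, where 5.63% of all genes tested were higher and 10.3% lower without overlap. Of 40 interferon and antigen presentation genes, 3 were higher and 1 lower at an unadjusted p under 0.05, against 4.6% and 6.55% of all genes tested. Higher values were found in 16 of the 40, with a median of -0.07, and in 35 of them at equal Hox axis score, with a median of 0.14.

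Few genes of the pathway that the series names stood apart. Of 32 genes of TLR4, MyD88 and NF-kB signalling, 20 had higher means, 3 of them without overlap, beside the background of 5.63%. At an unadjusted p under 0.05, 4 were higher, beside that of 4.6%, with 1 so without sham 3a. The median was 0.04. At equal Hox axis score 27 had higher and 5 lower values, with a median of 0.08, beside 0.01 over all genes tested. At an unadjusted p under 0.05, 3 were then higher, against 2.48% of all genes tested. Tlr4, the receptor for lipopolysaccharide, had 10.9, 15.4 and 14.6 FPKM in the HI libraries and 3.82, 4.36 and 13.5 FPKM in the sham libraries, with sham 3b above HI 1. Its log2 difference of 1.01 ± 0.40 became 0.12 at equal Hox axis score, and of the fits that left out 1 library it passed the adjusted threshold only in that without sham 3b. Lbp, which encodes the protein that hands lipopolysaccharide to the receptor complex, had 1.75, 9.40 and 6.36 FPKM in HI against 1.36, 1.25 and 2.60 FPKM in sham colons, and HI 1 lay under sham 3b. Cd14, the gene of the co-receptor, had 96.0, 64.9 and 58.9 FPKM in HI colons, against 79.1, 79.0 and 87.6 FPKM in sham colons, and Nfkbia, the gene of an inhibitor of NF-kB, had 60.1, 52.8 and 66.5 FPKM in HI and 56.0, 47.4 and 53.2 FPKM in sham. Both overlapped between groups. Myd88, the adaptor, had 23.3, 22.1 and 22.2 FPKM in the HI libraries and 22.1, 21.0 and 19.3 FPKM in the sham libraries, and Rela, a subunit of NF-kB, had 37.9, 34.4 and 35.4 FPKM in HI against 36.2, 33.1 and 34.9 FPKM in sham colons. Irak2, a kinase downstream of the adaptor, was higher in every HI library, with 18.01, 19.9 and 18.8 FPKM in HI colons, against 13.7, 13.8 and 14.9 FPKM in sham colons, as was Nfkb2, another subunit, with 24.4, 24.8 and 25.5 FPKM in HI and 20.9, 19.6 and 21.8 FPKM in sham. Their adjusted p were 0.246 and 0.357 (limma).

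Among secreted signals, Il18, an epithelial cytokine gene, had 31.2, 43.5 and 52.0 FPKM in the HI libraries and 22.1, 21.5 and 27.1 FPKM in the sham libraries, and Il34, which encodes a ligand of the macrophage growth factor receptor, had 8.91, 11.5 and 12.5 FPKM in HI against 7.52, 7.67 and 7.51 FPKM in sham colons. Ccl11, which draws eosinophils, was lower, with 71.2, 45.8 and 45.6 FPKM in HI colons, against 105, 127 and 73.1 FPKM in sham colons, and so was Cxcl11, with 6.92, 4.41 and 3.47 FPKM in HI and 8.93, 7.33 and 7.95 FPKM in sham. In all of these the groups were apart, and none passed the adjusted threshold (adjusted p 0.313 to 0.389, limma). Of the cell death genes, Bik, a member of the BCL2 family that promotes death, was lower, with 2.66, 1.75 and 1.91 FPKM in the HI libraries and 3.82, 3.60 and 3.83 FPKM in the sham libraries, and Birc3, an inhibitor of apoptosis, was higher in means, with 22.8, 34.3 and 32.0 FPKM in HI against 18.1, 17.3 and 23.3 FPKM in sham colons and HI 1 under sham 3b.

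**Figure D5:**
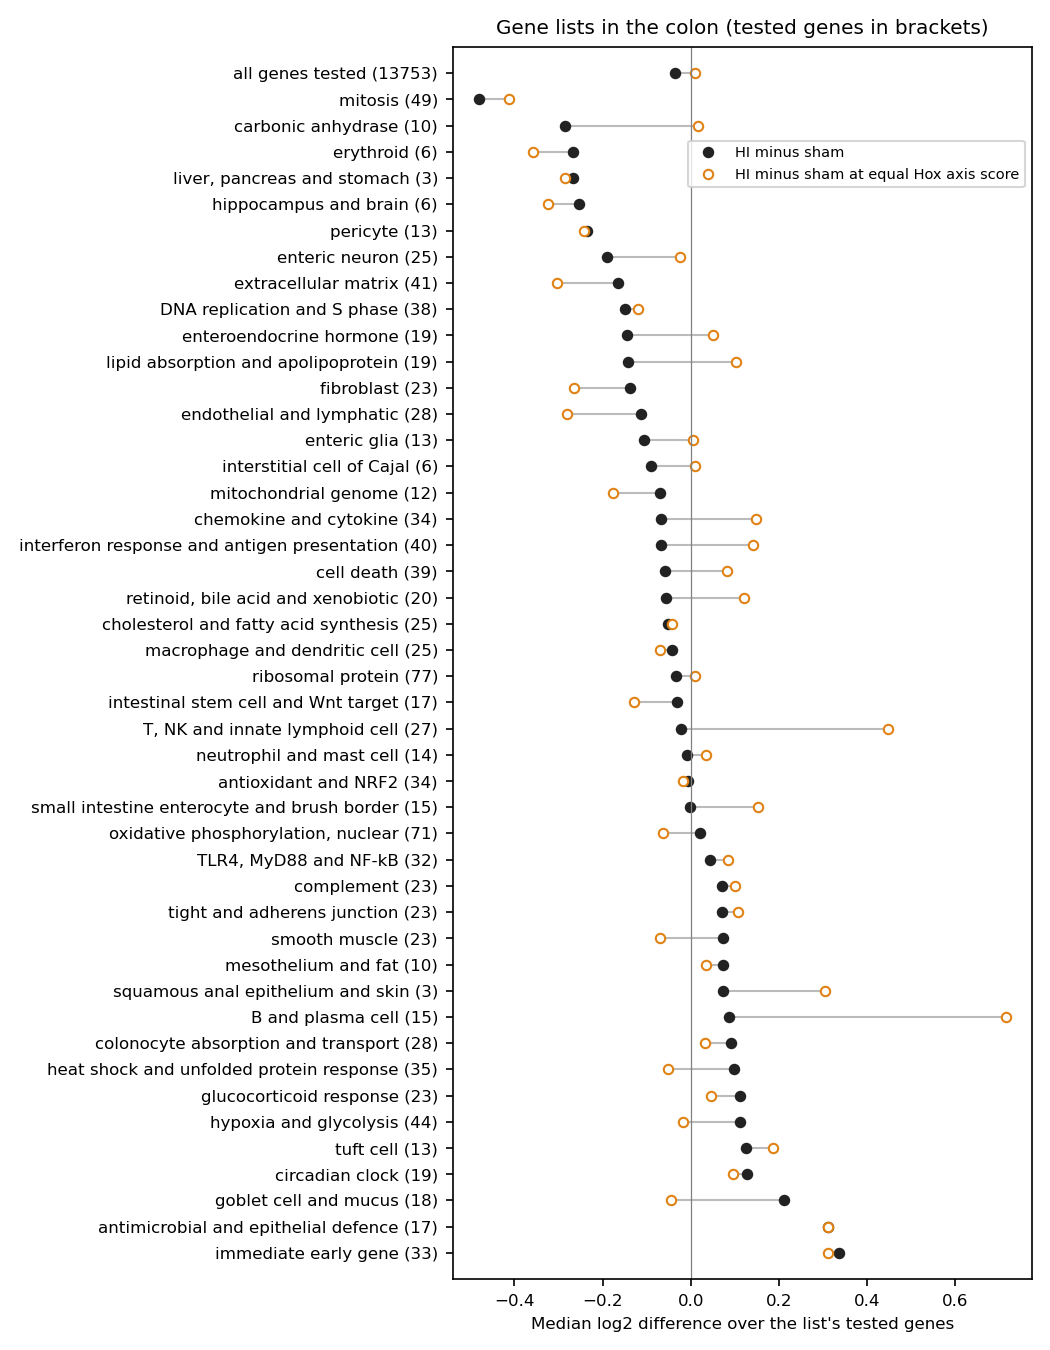
Median log2 difference (HI minus sham) over the tested genes of each of 45 lists and of all genes, in the fit with the groups alone (filled) and with the Hox axis score held equal (open). Mitosis is lowest in both fits, immediate early genes are high in both, and lymphocyte lists move far to the right at equal score.

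The plot of list medians sets both fits side by side. Mitosis had the lowest median in both fits, and immediate early and defence genes were above 0.3 in both. Defence genes were split, with 9 higher and 8 lower means in the fit on the groups alone and a range of -3.08 to 2.12. At equal score 14 were higher and 3 lower. In the fit on the groups alone their median was 0.15 with no filter on low values, and 0.21 to 0.75 with 1 library left out. Goblet, enteric neuron and carbonic anhydrase genes came to within 0.05 of 0 at equal score.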

How the data were processed

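The authors deposited FPKM per gene for 6 colon and 6 hippocampus libraries, made from purified mRNA of TRIzol extracts per the labels' protocols. No aligner, annotation, genome build or rule for reads that match several genes is named by the sources used here. Reads could be recovered from repeated steps among low values, but only 1 to 22 genes had such values in both libraries of a pair. These were too few to show whether steps repeat. The depth is thus unknown and no counting interval is given. FPKM summed to between 495505 and 509775 per colon library.

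Values were taken as log2(FPKM + 1). A gene was tested if it had at least 1 FPKM in at least 3 libraries. Groups were compared with limma 3.58.1 in R 4.3.3 (lmFit, eBayes with a mean-variance trend) and p-values were adjusted by Benjamini-Hochberg over all 13753 genes. A second fit added the Hox axis score and left 3 residual degrees of freedom. The fit on the groups alone was also run on simulated data, the outcome of which is not given here. Fold changes on this scale understate those of low genes. Given 3 samples a group, an exact permutation test of a single gene cannot go below p = 0.1.

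The genes described were drawn from all those past the adjusted threshold, the 12 in each direction with the smallest p and a mean of at least 5 FPKM whose groups did not overlap, the 6 in each direction from that pool at equal Hox axis score, up to 4 per list, and genes of the lipopolysaccharide pathway. Further members were chosen after their values were seen to show their roles, and 1 gene that the rule names is not reported here. Members and lists were chosen with earlier results of these data known. List members matched by symbol, and 3 by a synonym. Promoters came from RefSeq (GRCr8), matched by symbol, and motifs were searched on both strands. The 2 sham columns of equal header were kept as separate samples. Alternatives were another pseudocount, other filters, median-ratio scaling, no trend, array weights and each library left out.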

Additional observations from a re-analysis of the deposited data

Results flagged for a closer look

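Of the 94 genes described in the colon, 5 had groups apart in both tissues of the series, in opposite directions, while 7 had groups apart in the same direction in both. Of these 7, Ash1l, Dusp1, Errfi1, Per1 and Thbs1 were higher and Cdk1 and Eln lower. In the hippocampus 6.4% of genes were higher and 6.81% lower without overlap. Part of the 94 genes were chosen because their colon groups did not overlap. The share of all genes with groups apart in both tissues was not computed, so these counts are a description only. The difference between the tissues was not tested. Mt-atp6 had a log2 difference of -2.13 in the colon and 0.15 in the hippocampus. Fkbp5 differed by -0.84 in the colon and by 0.31 in the hippocampus, with 16.1, 18.6 and 16.8 FPKM in HI hippocampi, against 13.9, 13.5 and 13.6 FPKM in sham hippocampi. Klf4 differed by 1.05 in the colon and by -0.18 in the hippocampus, where its level was low, with 2.90, 2.92 and 2.62 FPKM in HI hippocampi, against 3.70, 3.06 and 3.17 FPKM in sham hippocampi. Cck differed by 1.09 in the colon and by -0.38 in the hippocampus, where it is a transmitter of neurons, with 81.8, 90.3 and 104 FPKM in HI hippocampi, against 109, 119 and 131 FPKM in sham hippocampi. Il34 differed by 0.47 in the colon and by -0.26 in the hippocampus, with 17.4, 20.7 and 21.6 FPKM in HI hippocampi, against 22.6, 25.4 and 23.8 FPKM in sham hippocampi.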

How the results depend on the processing

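The number of genes past the adjusted threshold was 6, and it was 3 without the mean-variance trend and 2 to 38 with 1 library left out. It was 9 with array weights and 4 at a mean of at least 5 FPKM. Median-ratio scaling gave 2 higher and 4 lower genes, in place of 1 and 5, and 833 higher and 718 lower at an unadjusted p under 0.05, in place of 632 and 901. Array weights gave 1009 higher and 1457 lower. With 1 library left out, these counts were 285 to 909 higher and 393 to 1432 lower. At equal Hox axis score, 2 genes passed with no filter on low values in place of 1, and 0 to 2 with 1 library left out, and at an unadjusted p under 0.05 those fits gave 237 to 524 higher and 225 to 539 lower. The immediate early genes at an unadjusted p under 0.05 numbered 7 at equal Hox axis score and 8 to 15 with 1 library left out, in place of 14. The cause of these changes was not tested. Over 1213 refits of 94 genes described here, 7 turned in direction. The difference of Cd14 was -0.19, and 0.025 at equal Hox axis score. That of H3f3a was 0.02, and -0.0087 to 0.049 with 1 library left out. That of H3f3b was -0.01, and 0.035 with median-ratio scaling, 0.0093 with array weights and -0.030 to 0.034 with 1 library left out. No paired analysis was possible because only 1 of the sham columns carries a replicate number of its own. The depth is unknown, so no limit for low genes can be given.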
